A study of Mus musculus with 45 samples.

Results

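Tumours formed with a deletion mutant of the platelet-derived growth factor receptor PDGFRA, labelled Pdgfra E10 del.v2, were compared with tumours carrying EGFRvIII in a mouse glioblastoma model. The comparison used 13 of the 45 arrays of the study, 5 of E10 del.v2 with title numbers 56, 58, 59, 63 and 64, and 8 of EGFRvIII with title numbers 41 to 48. Arrays are named here by these numbers, and values of E10 del.v2 are given in the order 56, 58, 59, 63, 64. All were labelled as mouse brain of the CD-1 nude strain with a p53-null background, and both groups share that background. Per the series description, retroviral constructs of wild-type or mutant PDGFRA were put into primary astrocytes from mice without p53, and the labels do not say what the suffix v2 stands for or how the EGFRvIII tumours were made. Total RNA extracted with Trizol was labelled with biotin, starting from 100 ng, and hybridised to Affymetrix 3' arrays. A further E10 del.v2 array, 57, was left out because its values read as mostly brain. The arrays were thus selected on the level of brain transcripts in array 57, and genes of neurons and of myelin are described without a test. No label says that arrays of a group came from separate animals or cultures, so the p-values reflect only how far these arrays vary, and that variation may be technical.

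PDGFRA is a receptor tyrosine kinase that binds PDGF ligands and signals through the RAS-MAPK and PI3K-AKT pathways. In the brain it marks oligodendrocyte progenitors, the dividing glial cells that give rise to myelinating oligodendrocytes, and activating mutations and amplification of it occur in high-grade glioma. EGFRvIII is a truncated epidermal growth factor receptor that lacks part of its extracellular region and signals without ligand through the same pathways.

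Values are RMA signals on the log2 scale, so a difference of 1 is a doubling of signal. The 5 E10 del.v2 arrays were more alike than the 8 EGFRvIII arrays. Array 57 had been left out of E10 del.v2 while all 8 EGFRvIII arrays were kept, so selection has a part in this. The median gene had an SD of 0.288 over the 5 E10 del.v2 arrays and 0.489 over the 8 EGFRvIII arrays, and pairs of arrays correlated across genes at 0.915 to 0.962 in E10 del.v2 and at 0.684 to 0.943 in EGFRvIII. EGFRvIII arrays 44, 45 and 48 stood apart on the first principal component of these 13 arrays, which held 44% of the variance, with scores of 108.2, 70.8 and 66 against -42.6 to 2.5 in the other arrays. Without these 3 arrays the median SD of EGFRvIII was 0.364. Differences are therefore also given for 5 against 5 arrays, with 44, 45 and 48 left out. The 3' minus 5' difference of Actb, a sign of RNA integrity, was 0.56 to 0.78 in the 5 E10 del.v2 arrays, 0.48 to 0.87 in EGFRvIII and 1.19 in array 57. In bulk tissue, fewer cells of a type and less RNA per cell cannot be told apart.

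With limma over 11149 genes, 2 genes (0.0179%) passed an adjusted p of 0.05, Uty, which was higher in E10 del.v2, and Cpne8, which was lower. The smallest adjusted p of any other gene was 0.245. At an unadjusted p under 0.05 there were 461 genes higher in E10 del.v2 (4.13%) and 632 lower (5.67%), and the median difference over all genes was -0.01. A total of 56 genes (0.502%) had values that did not overlap between the 5 and the 8 arrays, 16 higher in E10 del.v2 (0.144%) and 40 lower (0.359%). With array 57 kept, so 6 against 8 arrays, the same 2 genes passed, each with an adjusted p of 0.0434. Without EGFRvIII arrays 44, 45 and 48, Uty alone passed (1 of 10844, 0.00922%), and 191 genes were higher (1.76%) and 359 lower (3.31%) at an unadjusted p under 0.05.

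Uty, a Y-linked gene encoding a relative of the histone demethylase Kdm6a, read 6.10, 5.45, 5.71, 5.97 and 6.22 in E10 del.v2. In EGFRvIII it ran from 2.50 to 3.16 with a median of 2.71. Every E10 del.v2 array lay far above every EGFRvIII array. Uty rose by 3.15 ± 0.16 (SE of the limma fit, adjusted p = 4.2e-07), and its other probe set differed by 1.55, also with no overlap. All 8 EGFRvIII values lay below the table median of 4.79 used as the filter, so Uty entered the test through E10 del.v2 alone. With EGFRvIII values that dim, the Uty difference has no exact size. Array 57 read 3.08, at the EGFRvIII level. The 3 E10 del.v2 arrays with lower title numbers, 23, 24 and 25, read 5.50, 5.81 and 6.0.

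The other Y-linked genes on the table did not separate the groups. Eif2s3y, a subunit of a translation initiation factor, read 9.03, 8.06, 8.06, 8.02 and 8.78 in E10 del.v2. EGFRvIII fell into separate levels for it, 8.35, 7.25 and 8.64 in arrays 44, 45 and 46 and 2.45 to 2.77 in the others. The Eif2s3y difference was 3.73 ± 1.19 (adjusted p = 0.489). Kdm5d, a histone demethylase, read 6.46, 6.17, 6.81, 6.90 and 6.82, with EGFRvIII arrays 44, 45 and 46 at 6.61, 5.92 and 7.10 and the remaining 5 from 2.29 to 2.98. Kdm5d differed by 2.47 ± 0.84 (adjusted p = 0.489). Uty read only 3.16, 2.56 and 2.76 in EGFRvIII arrays 44, 45 and 46, where Eif2s3y and Kdm5d read near or within the E10 del.v2 values. Whether the Uty probe sets read Uty equally well in all arrays, and so what the Uty difference measures, was not tested. The Y-linked Ddx3y was not analysed here.

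Xist, the RNA that coats the inactive X chromosome in female cells, was read in every array of both groups. Its values were 10.69, 11.18, 10.16, 11.10 and 10.27 in E10 del.v2 and 11.32 to 12.43 in EGFRvIII, with a median of 11.88. All 5 values lay below the lowest EGFRvIII array, with a difference of -1.19 ± 0.24 (adjusted p = 0.343). The other Xist probe sets differed by -1.256 and -1.101, but their values overlapped between the groups. Array 57 read 11.30 for Xist, and 3.23 for both Eif2s3y and Kdm5d. The sex of the mice and of the astrocyte cultures is not given in the labels used here, so the part of sex in any difference was not tested.

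**Figure D1:**
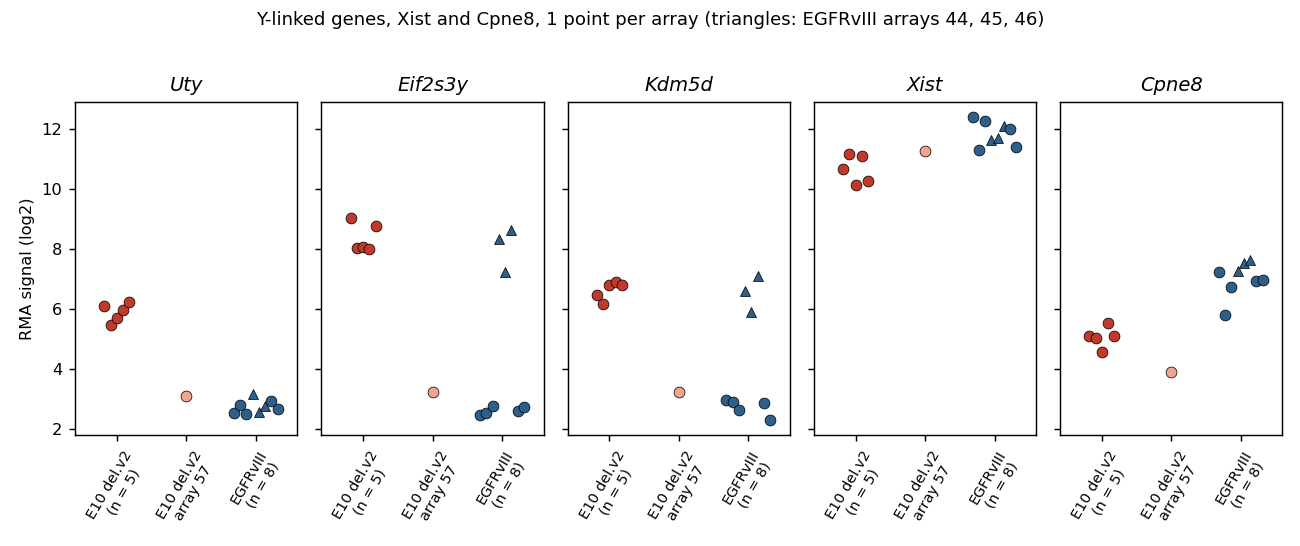
RMA signal on the log2 scale of Uty, Eif2s3y, Kdm5d, Xist and Cpne8, with 1 point per array, for 5 E10 del.v2 arrays, array 57 and 8 EGFRvIII arrays. Uty is high in all 5 E10 del.v2 arrays and low in all EGFRvIII arrays, whereas Eif2s3y and Kdm5d are also high in EGFRvIII arrays 44, 45 and 46, drawn as triangles.

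Cpne8, a copine that binds membrane phospholipid in a calcium-dependent way, read 5.08, 5.04, 4.58, 5.53 and 5.11 in E10 del.v2. EGFRvIII ran from 5.80 to 7.64 with a median of 7.11, above all 5. The gene fell by 1.95 ± 0.28, a 3.87-fold lower signal (adjusted p = 0.0395), and both of its probe sets gave the same difference. The size held without EGFRvIII arrays 44, 45 and 48, at -1.87, but the call did not (adjusted p = 0.309). Array 57 read 3.88, below every other array of the comparison.

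For the receptors that define the groups, the probe sets of highest mean signal overlapped between groups. Pdgfra read 7.66, 7.18, 7.36, 6.79 and 7.61 in E10 del.v2. Its EGFRvIII values spanned 4.53 to 9.41 with a median of 7.80, so the E10 del.v2 arrays sat inside that range. The Pdgfra difference was 0.10 ± 0.73 (adjusted p = 0.96), and it turned to -0.88 without EGFRvIII arrays 44, 45 and 48, of which 44 and 45 read 4.53 and 4.92. Egfr read 5.2, 5.55, 4.72, 5.84 and 5.48, inside the EGFRvIII range of 4.53 to 8.20 with a median of 5.85, a difference of -0.69 ± 0.56 (adjusted p = 0.605) that turned to 0.15 without the 3 arrays. Another Egfr probe set, not used for the test, read 4.54 to 5.03 in E10 del.v2 and 5.27 to 6.12 in EGFRvIII, with no overlap and a difference of -0.88, and all 6 Egfr probe sets had a negative difference. Whether the probe sets read the introduced constructs was not tested.

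Among the ligands and other receptors, 0 of 5 tested genes of the PDGF family passed limma's test and 0 had an unadjusted p under 0.05. For this and the lists below, the shares over all genes at that p were 4.13% higher and 5.67% lower. Without EGFRvIII arrays 44, 45 and 48 they were 1.76% and 3.31%. Shares with no overlap in the main comparison were 0.144% higher and 0.359% lower. The medians of the PDGF and ERBB lists were -0.30 and -0.65, and 0.14 and 0.01 without EGFRvIII arrays 44, 45 and 48. Pdgfd and Pdgfrb, a ligand and the sister receptor, differed by -1.03 ± 0.63 and -0.45. Of 8 tested genes of the ERBB family, 0 passed and 1 had an unadjusted p under 0.05, the EGFR ligand Ereg. Ereg read 2.69, 2.58, 2.51, 2.6 and 2.59 against 2.87 to 7.53 in EGFRvIII, with a median of 3.20. No values overlapped, with a difference of -1.93 ± 0.87 (adjusted p = 0.495), and EGFRvIII arrays 44, 45 and 48 read 7.53, 5.90 and 7.51 while the other 5 read at most 3.28. Ereg entered the test through those 3 arrays alone, so the lack of overlap lies among dim values and the difference has no exact size. Errfi1, a feedback inhibitor of EGFR, differed by -0.90, and its EGFRvIII maximum of 11.14 was in array 48.

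Of the 14 genes named as higher, those with the smallest p after Uty were zinc-finger genes. Zfp40, a zinc-finger protein, read 8.11, 7.63, 7.67, 7.52 and 8.11 against 5.05 to 7.07 in EGFRvIII (median 6.19). The difference was 1.55 ± 0.29, or 2.93-fold (adjusted p = 0.29). Zfp994, of the same class, read 6.17, 6.35, 5.77, 5.94 and 6.84 against 4.09 to 5.67 (median 4.79), a difference of 1.41 ± 0.27 (adjusted p = 0.29). Both groups of values were apart in each gene, and neither passed the test. Both genes lie on chromosome 17, where 30 of 37 tested genes with a Zfp symbol were higher, with a median of 0.30 against -0.01 over all genes. Of these 37, 7 were higher at an unadjusted p under 0.05, against 4.13% of all genes. The set was looked at because of Zfp40 and Zfp994, which are both among the 7, so its counts only describe these data. Sequences of zinc-finger genes are alike, so probes of one can read another. What lies behind the shared direction was not tested.

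Ptprs, a receptor-type tyrosine phosphatase that binds proteoglycans, varied little in E10 del.v2. It read 10.68, 10.67, 10.70, 10.65 and 10.95 against 9.84 to 10.31 in EGFRvIII (median 10.16), a difference of 0.58 ± 0.12 (adjusted p = 0.343). Maged2, a member of the melanoma antigen family, read 8.98, 9.09, 9.36, 8.47 and 9.07 against 7.19 to 8.43 (median 8.07). All 5 Maged2 values stood above the EGFRvIII maximum, by 1.04 ± 0.22 between the means (adjusted p = 0.343). Rbm28, a nucleolar RNA-binding protein of ribosome assembly, read 8.56, 8.49, 8.34, 8.10 and 8.67 against 7.33 to 8.04 (median 7.65), which gave 0.75 ± 0.16 (adjusted p = 0.343). Array 57 read 6.85 for Maged2 and 6.97 for Rbm28, below all 13 arrays, and 10.74 for Ptprs, among the other E10 del.v2 arrays.

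After Uty, the largest difference in mean among the 14 genes named as higher was that of Lims2, an adaptor of focal adhesions that is also listed among progenitor genes below. It read 10.56, 11.10, 12.02, 10.54 and 10.86 against 4.92 to 10.33 in EGFRvIII (median 8.29). The Lims2 difference was 2.96 ± 0.84, or 7.79-fold (adjusted p = 0.489), with EGFRvIII arrays 44, 45 and 48 lowest at 4.92, 7.53 and 5.65. Fxyd6, a regulator of the sodium-potassium pump, read 9.51, 9.24, 9.29, 9.49 and 9.20 against 3.94 to 8.74 (median 8.25). Its difference of 2.09 ± 0.78 (adjusted p = 0.489) held an EGFRvIII low of 3.94 in array 44. Trim67, a ubiquitin ligase family member, read 7.12, 7.45, 7.31, 6.86 and 7.0 against 4.13 to 6.77 (median 6.26), with a difference of 1.26 ± 0.44. Arrays 44 and 45 were again the lowest of EGFRvIII for Trim67, at 4.13 and 4.47.

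The remaining genes named as higher were Uhmk1, Zdhhc21, Sesn3, Gpd1l and Rbm3, each with an adjusted p of 0.489. Uhmk1, a serine-threonine kinase, read 8.99 to 9.22 against 7.99 to 8.96, a difference of 0.69 ± 0.19. Sesn3, a sestrin and target of FOXO factors, read 9.88 to 10.13 against 8.49 to 9.84, which gave 0.70 ± 0.23. Zdhhc21, a palmitoyltransferase, differed by 0.48 ± 0.15, and Gpd1l, a relative of glycerol-3-phosphate dehydrogenase, by 0.73 ± 0.24. Rbm3, an RNA-binding protein induced by cold, differed by 1.13 ± 0.47, with array 48 of EGFRvIII at 3.87 and the rest of that group at 6.41 to 7.11. In these 5 genes the gap between the groups was small beside the range within EGFRvIII.

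**Figure D2:**
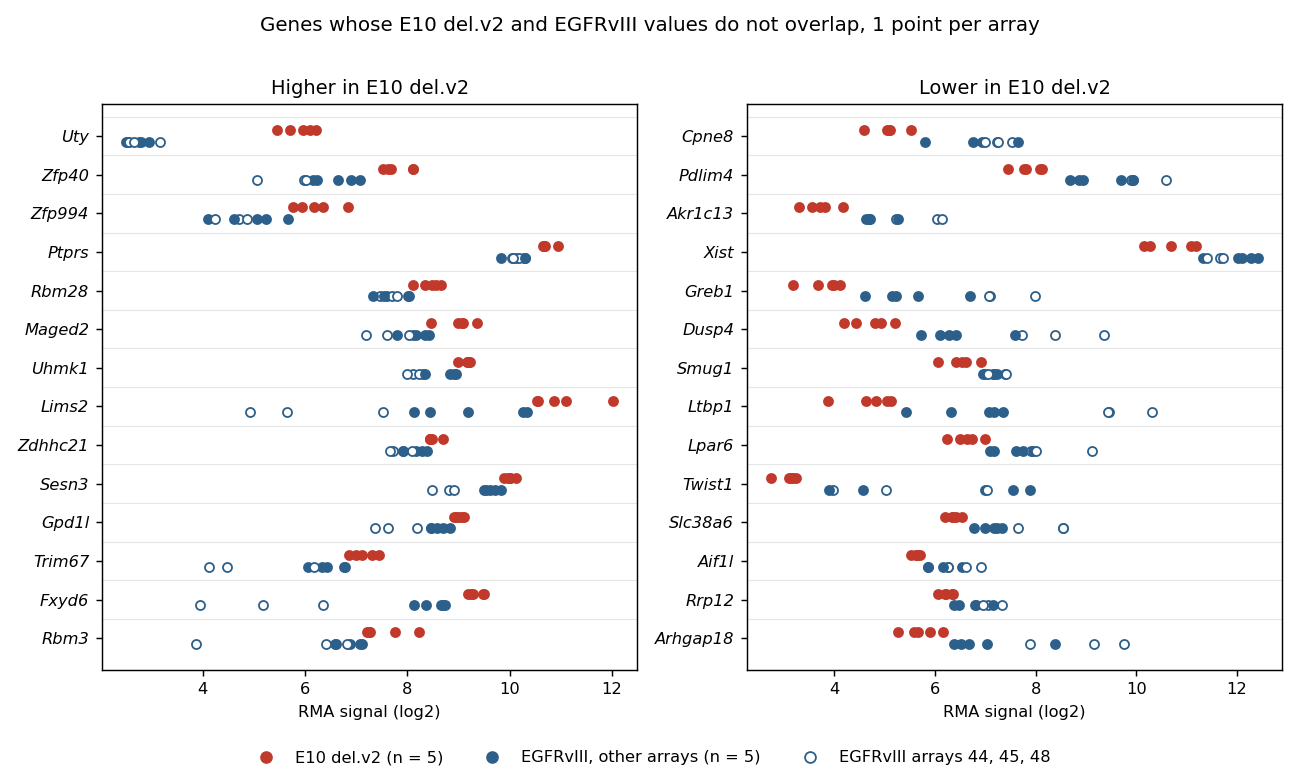
RMA signal on the log2 scale of the 28 genes named by the rule, with 1 point per array, for 5 E10 del.v2 and 8 EGFRvIII arrays. No values overlap because the rule asked for that, and in Lims2, Fxyd6, Ltbp1 and Arhgap18 the EGFRvIII arrays farthest from E10 del.v2 are 44, 45 or 48, drawn hollow.

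On the lower side, the gene nearest to the threshold after Cpne8 was Pdlim4, a PDZ and LIM domain protein of the actin skeleton. It read 7.46, 8.09, 8.13, 7.77 and 7.82 against 8.69 to 10.59 in EGFRvIII (median 9.81). The difference was -1.72 ± 0.30, or 3.29-fold (adjusted p = 0.245). Greb1, first known as an oestrogen-responsive gene, read 3.68, 4.11, 3.98, 3.95 and 3.17 against 4.62 to 7.99 (median 6.18). Greb1 differed by -2.41 ± 0.51 (adjusted p = 0.343), and its E10 del.v2 values lay below the table median of 4.79. Akr1c13, an aldo-keto reductase, read 3.30, 4.18, 3.71, 3.56 and 3.81 against 4.63 to 6.13 (median 4.96), which gave -1.46 ± 0.29 (adjusted p = 0.343). All 5 E10 del.v2 values of Akr1c13 likewise lay below 4.79, so Greb1 and Akr1c13 entered the test through EGFRvIII alone. With E10 del.v2 values that dim, their differences have no exact size and may be understated.

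The other genes named as lower did not pass the test either. Lpar6, a receptor for lysophosphatidic acid, read 6.64, 6.73, 6.23, 6.50 and 6.99 against 7.09 to 9.13 in EGFRvIII (median 7.84), a difference of -1.21 ± 0.29 (adjusted p = 0.463). Arhgap18 read 5.26, 5.58, 5.66, 6.16 and 5.91 against 6.37 to 9.77 (median 7.46), a difference of -2.01 ± 0.55 (adjusted p = 0.489). In Arhgap18 the highest EGFRvIII arrays were 48 and 44. Slc38a6, an amino acid transporter, differed by -1.16 ± 0.29 and Aif1l, an actin-binding relative of Aif1, by -0.68 ± 0.18 (both adjusted p = 0.489). Smug1, a uracil-DNA glycosylase of base excision repair, differed by -0.66 ± 0.15 (adjusted p = 0.397), and Rrp12, a ribosomal RNA processing factor, by -0.63 ± 0.17 (adjusted p = 0.489). The small differences of Smug1, Aif1l and Rrp12 went with small spreads, within 1 unit in E10 del.v2.

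Oligodendrocyte progenitor genes for surface and matrix proteins were on the higher side, but the size depended on 3 EGFRvIII arrays. All 13 tested genes of the list had a positive difference, with a median of 1.66, 0 passed limma's test, and 5 had an unadjusted p under 0.05. Over all genes, 4.13% were higher at that p. The median was 0.37 without EGFRvIII arrays 44, 45 and 48, where 3 had an unadjusted p under 0.05, and the median over all genes was 0 in that comparison. Susd5, a sushi domain protein, read 9.50, 9.56, 8.88, 8.6 and 9.29 against 3.85 to 9.30 in EGFRvIII (median 5.62), a difference of 2.91 ± 0.84 (adjusted p = 0.489). C1ql1, a secreted C1q-like protein, read 7.09, 7.92, 8.11, 6.63 and 6.68 against 3.88 to 7.66 (median 5.58), which gave 1.83 ± 0.54. Gpr17, a receptor of progenitors that commit to myelination, read 11.62 to 12.41 against 5.26 to 12.33, and Tnr, the matrix protein tenascin-R, 11.29 to 12.06 against 5.61 to 12.02. In Gpr17 and Tnr the EGFRvIII range reached the E10 del.v2 values at its top and 44, 45 and 48 made its bottom.

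Averaged over the progenitor list, the signal was 10.54, 10.60, 10.68, 9.95 and 10.09 in E10 del.v2. EGFRvIII arrays 44, 45 and 48 averaged 5.60, 6.91 and 7.67, and the other 5 averaged 9.07 to 10.67. Array 57 averaged 6.81 and the arrays 23, 24 and 25 averaged 9.57 to 10.20. The E10 del.v2 arrays thus lay with 5 of the 8 EGFRvIII arrays and away from the other 3.

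Transcription factors of the oligodendrocyte lineage gave the same picture at smaller size. Of 10 tested, 9 had a positive difference, the median was 0.93, 0 passed limma's test and 2 had an unadjusted p under 0.05. Sox8 read 10.40, 10.40, 10.34, 10.10 and 10.31 against 4.92 to 10.53 in EGFRvIII (median 9.22), a difference of 2.02 ± 0.84 (adjusted p = 0.489). Nkx2-2, which directs progenitors toward differentiation, read 9.03, 9.85, 10.45, 9.12 and 8.72 against 5.32 to 9.69 (median 7.92), a difference of 1.79 ± 0.74. Olig2, the defining factor of the lineage, read 10.54 to 11.43 against 7.60 to 11.29, and Sox10 10.79 to 11.92 against 6.2 to 11.53. The list median was 0.28 without EGFRvIII arrays 44, 45 and 48.

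Regulators of neural stem cells and of the proneural state were positive in 12 of 13 tested genes, with a median of 0.44 and 0 passing limma's test, and the median was 0.17 without EGFRvIII arrays 44, 45 and 48. Hes5, a transcriptional repressor that acts downstream of Notch, had the smallest p of the list. It read 7.13, 7.26, 6.48, 6.2 and 6.77 against 3.06 to 6.53 in EGFRvIII (median 4.46), with 1 EGFRvIII array, 43, inside the E10 del.v2 range. The Hes5 difference was 2.22 ± 0.50 (adjusted p = 0.379). Zeb2, also listed among mesenchymal factors, read 9.84 to 10.37 against 8.02 to 10.31, a difference of 0.93 with an unadjusted p under 0.05.

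Output genes of the MAPK pathway, the route by which both receptors drive proliferation, held no called gene. Of 20 tested, 5 had a positive difference, the median was -0.29, 0 passed limma's test and 6 were lower at an unadjusted p under 0.05. Over all genes, 5.67% were lower at that p. Dusp4, a nuclear phosphatase of ERK, read 4.19, 4.82, 4.42, 5.2 and 4.92 against 5.72 to 9.37 in EGFRvIII (median 7.0). It was the 1 gene of the list with no overlap, with a difference of -2.49 ± 0.55, or 5.61-fold (adjusted p = 0.379). Spred2, an inhibitor of RAS signalling, read 8.58, 8.52, 8.35, 8.77 and 8.73 against 8.74 to 9.49 (median 9.30), which gave -0.57 ± 0.17 (adjusted p = 0.489). Dusp6 differed by -0.53 and Spry4, a further feedback inhibitor, by -0.70, while the factors Etv1, Etv4 and Etv5, which follow ERK activity, differed by 0.28, 0.09 and -0.14. The Etv factors were thus split by sign, with Etv5 on the side of Dusp6 and Spry4, and their differences were small. The list median was -0.15 without EGFRvIII arrays 44, 45 and 48, with 4 genes lower at an unadjusted p under 0.05, and Dusp4 read 5.90 in array 57.

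Immediate early genes, which respond to growth factors within minutes, had a median of -0.31 over 12 tested, 0 passing limma's test and 4 lower at an unadjusted p under 0.05. Without EGFRvIII arrays 44, 45 and 48 the median was -0.01. Ier2 read 6.80, 6.66, 7.65, 7.32 and 7.80 against 7.46 to 8.59 (median 7.80), and Klf4, a transcription factor, 4.19 to 5.22 against 4.86 to 9.49. Targets of FOXO factors, which AKT represses, had a median of -0.15 over 11 tested, with 0 passing, 1 higher (Sesn3, above) and 1 lower (Insr, the insulin receptor, -0.51 ± 0.17) at an unadjusted p under 0.05.

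Mesenchymal genes of glioma were on the lower side. Of 20 tested effectors of the mesenchymal state, 1 had a positive difference, the median was -1.13, 0 passed limma's test, 8 were lower at an unadjusted p under 0.05 and 2 had no overlap. Over all genes, 5.67% were lower at that p and 0.359% were lower with no overlap. Without EGFRvIII arrays 44, 45 and 48 the median was -0.12 with 2 lower at that p. Lgals1, the secreted galectin-1, read 8.85, 9.04, 9.25, 9.42 and 9.44 against 9.62 to 13.21 in EGFRvIII (median 11.23). All 5 E10 del.v2 arrays were below the EGFRvIII minimum, by 2.12 between the means (-2.12 ± 0.63, adjusted p = 0.489). Vim, the intermediate filament vimentin, read 11.91, 12.36, 12.12, 12.05 and 12.20 against 12.25 to 13.03 (median 12.59), a difference of -0.50 ± 0.15. Lif, a cytokine, was the other gene with no overlap, at 3.33 to 3.91 against 3.93 to 8.88. All 5 E10 del.v2 values of Lif lay below the filter, so Lif entered the test through EGFRvIII alone. Its lack of overlap, between 3.91 and 3.93, thus lies among dim values. Met, the receptor of hepatocyte growth factor, differed by -2.52 ± 1.02. List averages were 7.42, 7.98, 7.79, 7.04 and 7.71 in E10 del.v2, 10.48, 10.36 and 9.96 in EGFRvIII arrays 44, 45 and 48, and 6.91 to 8.56 in the other EGFRvIII arrays.

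**Figure D3:**
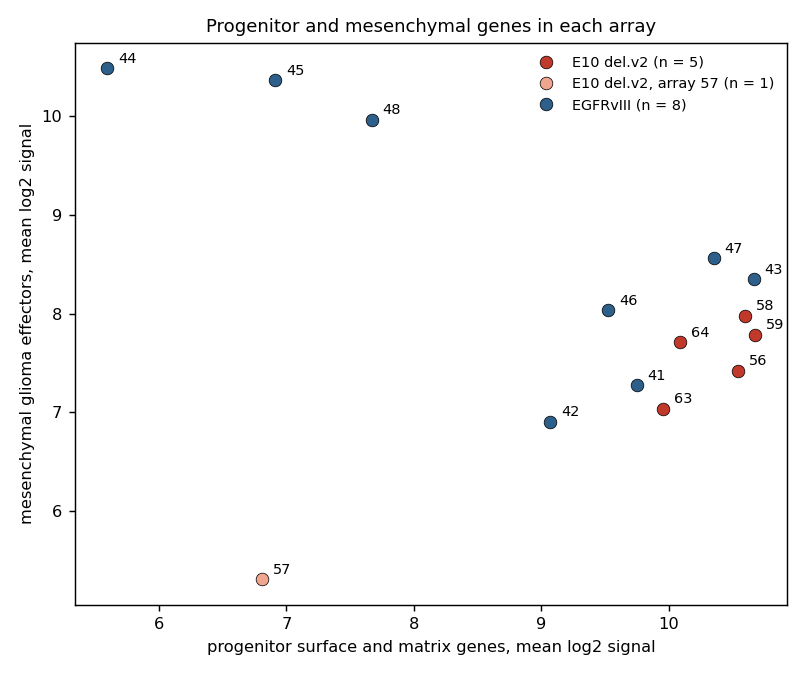
Mean log2 signal of the 13 progenitor surface and matrix genes against that of the 20 mesenchymal effectors, with 1 point per array labelled by its title number. The 5 E10 del.v2 arrays lie beside EGFRvIII arrays 41, 42, 43, 46 and 47, EGFRvIII arrays 44, 45 and 48 lie at the upper left, and array 57 is low on both axes.

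Transcription factors of the mesenchymal transition had a median of -0.80 over 13 tested, with 0 passing limma's test, 1 higher and 3 lower at an unadjusted p under 0.05. Twist1, a driver of that transition, was near the floor in E10 del.v2, at 2.74, 3.18, 3.10, 3.13 and 3.24. EGFRvIII ran from 3.89 to 7.88 with a median of 6.01, and its highest arrays were 46 and 41, not the 3 that stood apart. The Twist1 difference was -2.79 ± 0.69 (adjusted p = 0.489). Twist1 passed the filter through EGFRvIII alone, and with E10 del.v2 values that dim its difference has no exact size. Wwtr1, the Hippo pathway co-activator TAZ, differed by -1.37 and Fosl2, an AP-1 factor, by -1.02. The list median was -0.15 without EGFRvIII arrays 44, 45 and 48.

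Genes of the extracellular matrix and its remodelling leaned the same way. Collagen and matrix genes had a median of -0.75 over 18 tested, with 3 positive, 0 passing limma's test and 3 lower at an unadjusted p under 0.05. Col5a1, a fibrillar collagen, read 5.90, 5.56, 6.32, 6.19 and 6.66 against 6.37 to 9.20 (median 8.01), a difference of -1.79 ± 0.50 (adjusted p = 0.489). Thbs2, a matrix glycoprotein, read 3.54 to 4.24 against 3.80 to 9.91, and Fn1, fibronectin, differed by -1.57. Proteases and their inhibitors had a median of -0.61 over 14, with 0 passing and 2 lower at that p. Mmp14, a membrane-bound protease, differed by -1.52 ± 0.44, and Timp1, an inhibitor of such proteases, by -2.30 ± 0.78. Enzyme and inhibitor were thus both lower in mean, and neither passed the test. Without EGFRvIII arrays 44, 45 and 48 the medians were -0.15 for matrix and -0.33 for proteases.

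The TGF-beta pathway, which promotes matrix production, had 2 positive genes of 14 tested, a median of -0.52, 0 passing limma's test, and 1 higher and 3 lower at an unadjusted p under 0.05. Ltbp1, which holds latent TGF-beta in the matrix, read 5.04, 4.82, 3.88, 5.13 and 4.62 against 5.42 to 10.31 in EGFRvIII (median 7.27). In the probe set tested, the Ltbp1 values did not overlap, with a difference of -3.12 ± 0.73, or 8.67-fold (adjusted p = 0.435). The other Ltbp1 probe sets were dimmer, overlapped between groups and differed by -0.629 and -1.445. Tgfb3, a ligand, read 4.69, 5.21, 5.37, 5.66 and 4.78 against 4.67 to 8.06 (median 6.64), which gave -1.50 ± 0.48. Smad3, which carries the signal to the nucleus, differed by -0.90, and Tgfbr1, a receptor, was the gene higher at that p, by 0.55. The median was -0.04 without EGFRvIII arrays 44, 45 and 48.

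Macrophage polarisation genes had a median of -1.15 over 9 tested, with 0 passing limma's test and 3 lower at an unadjusted p under 0.05. Arg1, the arginase of alternatively activated macrophages, read 2.54, 2.89, 2.46, 2.64 and 2.83 against 3.43 to 11.53 in EGFRvIII (median 6.86). No values overlapped, and the difference was -4.26 ± 1.30 (adjusted p = 0.489). Msr1, a scavenger receptor, read 4.48, 4.89, 3.85, 3.83 and 5.83 against 4.02 to 9.77 (median 7.33), a difference of -2.52 ± 0.89. Arg1 lay below the filter in all 5 E10 del.v2 arrays, so it entered the test through EGFRvIII alone. With E10 del.v2 values that dim, the Arg1 difference has no exact size. Arrays 44 and 45 of EGFRvIII read 10.97 and 11.53. The median was -0.18 over the 6 genes tested without EGFRvIII arrays 44, 45 and 48.

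**Figure D4:**
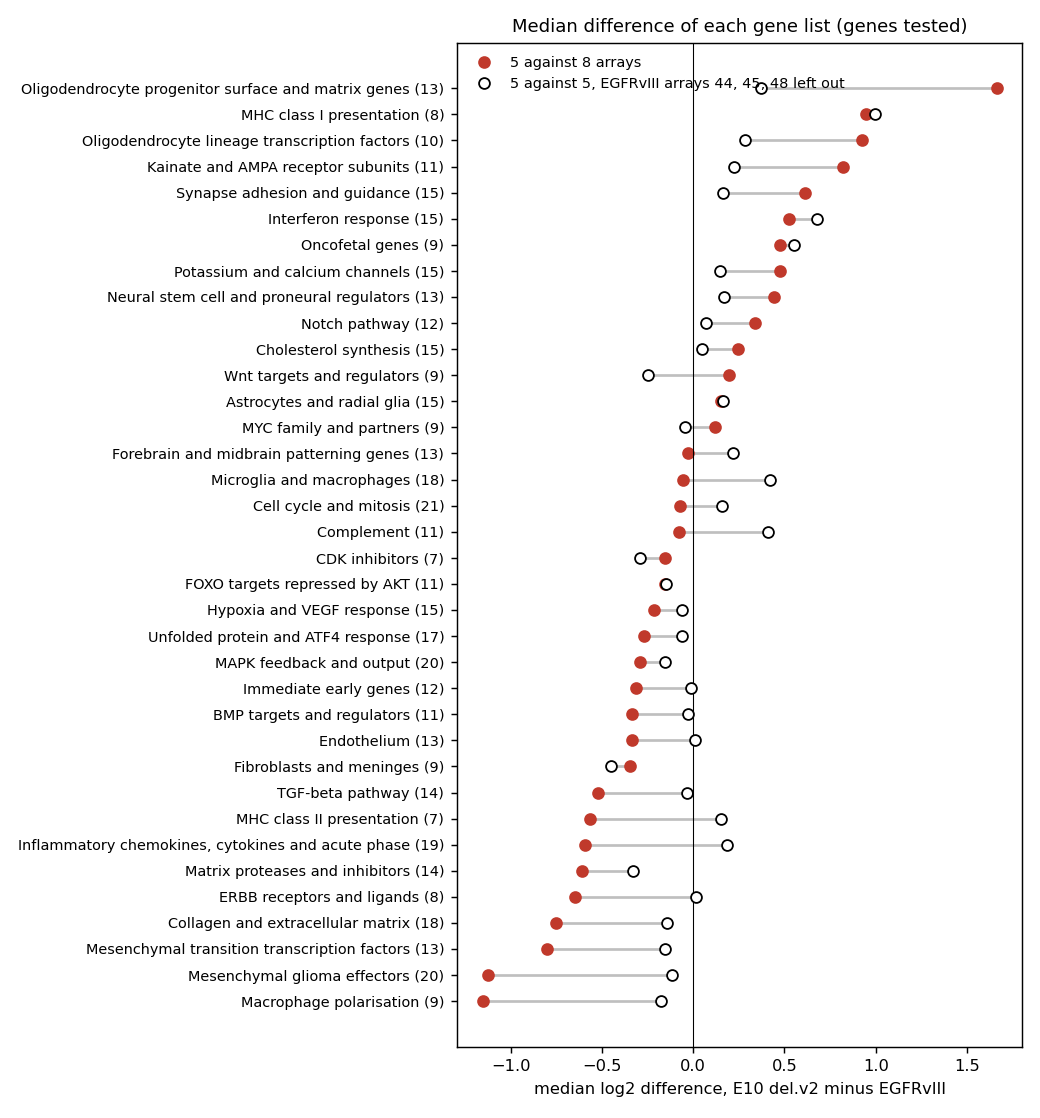
Median log2 difference, E10 del.v2 minus EGFRvIII, of each gene list with 7 or more genes tested, whose number stands in brackets, for 5 against 8 arrays (filled) and 5 against 5 arrays without EGFRvIII 44, 45 and 48 (open). The medians of progenitor genes (1.66 to 0.37) and mesenchymal effectors (-1.13 to -0.12) move toward 0, whereas those of MHC class I (0.95 and 1.0) and interferon response (0.52 and 0.68) do not.

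Notch pathway genes had a median of 0.34 over 12 tested, with 0 passing limma's test, 2 higher and 2 lower at an unadjusted p under 0.05. Hey2, a Notch target, read 8.47, 8.74, 8.40, 7.82 and 8.58 against 3.19 to 8.34 in EGFRvIII (median 6.28), a difference of 2.26 ± 0.73 (adjusted p = 0.489). Hes5 (above) was the other higher gene, and the lower ones were Jag1, a ligand, at -0.96 and Hes1, a target, at -0.91. Targets of Notch were therefore split by sign, Hes5 and Hey2 on one side and Hes1 on the other. The list median was 0.07 without EGFRvIII arrays 44, 45 and 48.

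BMP genes had a median of -0.33 over 11 tested that changed sign in 4 of 27 alternative analyses, and 0 passed limma's test. Bmp4, a ligand, read 8.30, 9.43, 10.16, 9.30 and 8.74 against 4.65 to 9.71 (median 6.28), a difference of 2.27 ± 0.81 (adjusted p = 0.489). Bambi, a decoy receptor, read 5.12 to 6.23 against 5.88 to 8.11, which gave -1.0 ± 0.35. The Wnt list had a median of 0.20 over 9 tested, which was -0.25 without EGFRvIII arrays 44, 45 and 48, and its gene of smallest p was Wnt5a, a ligand, at -1.20 ± 0.46.

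Inhibitors of cyclin-dependent kinases did not move together. Their median was -0.15 over 7 tested, with 0 passing limma's test, 1 higher and 1 lower at an unadjusted p under 0.05. Cdkn2b, encoding p15, read 7.96, 7.74, 8.23, 6.06 and 7.84 against 7.89 to 10.99 in EGFRvIII (median 9.34). Only array 42 of EGFRvIII lay inside the E10 del.v2 range, and the difference was -1.88 ± 0.53 (adjusted p = 0.489). Its neighbour Cdkn2a, encoding p16 and p19ARF, read 9.54, 9.12, 9.95, 7.83 and 8.69 against 8.47 to 11.15 (median 9.91), which gave -0.86 ± 0.47 (adjusted p = 0.506). Array 63 was lowest of E10 del.v2 in both genes. Cdkn1c, encoding p57, read 8.88, 8.80, 9.45, 8.69 and 8.53 against 3.83 to 9.44 (median 5.77), a difference of 2.82 ± 0.81, with only EGFRvIII array 47 inside the E10 del.v2 range.

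Cell cycle genes did not separate the groups. Over 21 tested the median was -0.07, 0 passed limma's test and 0 had an unadjusted p under 0.05. The list averaged 7.62, 7.56, 7.56, 7.91 and 8.69 in E10 del.v2, 6.08 to 8.58 in EGFRvIII and 4.53 in array 57, and the median was 0.16 without EGFRvIII arrays 44, 45 and 48 and -0.60 with array 57. Patterning genes of the forebrain and midbrain had a median of -0.03 over 13 tested with 0 at that p, and 2 of 26 Hox genes passed the filter. The MYC family had a median of 0.12 over 9 tested, with Mycl at 7.87 to 8.98 against 4.38 to 9.62. Oncofetal genes had a median of 0.48 over 9, with 0 passing and opposite signs in the leading genes. Hmga2, a chromatin protein of early development, read 6.11, 7.07, 7.17, 6.31 and 7.73 against 7.43 to 12.10 (median 9.80), a difference of -2.84 ± 0.77, whereas Ndn, an imprinted growth suppressor, read 9.96, 9.62, 9.76, 11.38 and 9.89 against 8.12 to 10.36 (median 8.79), a difference of 1.12 ± 0.39.

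Antigen presentation and interferon genes overlapped between the groups. MHC class I presentation had a median of 0.95 over 8 tested, 1.0 without EGFRvIII arrays 44, 45 and 48 and 0.31 with array 57, with 0 passing limma's test and 1 higher at an unadjusted p under 0.05. Averages of that list were 10.70, 11.20, 9.87, 7.97 and 9.55 in E10 del.v2 and 6.71 to 10.57 in EGFRvIII, so array 63 lay well below the other 4. H2-D1, a class I heavy chain, read 12.49, 12.85, 12.22, 10.85 and 12.11 against 8.84 to 12.27 (median 10.87), a difference of 1.19 ± 0.51 (adjusted p = 0.489). Interferon response genes had a median of 0.52 over 15 tested, 0.68 without the 3 arrays and -0.20 with array 57, and 0 had an unadjusted p under 0.05. Array 63 was again lowest of E10 del.v2 in that list, at 6.60 against 8.50 to 9.72. MHC class II genes had a median of -0.56 over 7 tested and 0.15 without the 3 arrays, with H2-Eb1 at 9.58, 10.39, 6.02, 4.79 and 4.52, high in arrays 56 and 58 and low in 63 and 64.

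Inflammatory chemokines and cytokines had a median of -0.59 over 19 tested and 0.19 without EGFRvIII arrays 44, 45 and 48, with 0 passing limma's test and 3 lower at an unadjusted p under 0.05. Saa3, an acute phase protein, read 3.89, 4.08, 3.15, 3.06 and 5.12 against 3.55 to 10.49 (median 5.75), a difference of -2.55 ± 1.06. Complement genes had a median of -0.08 over 11 tested, which changed sign in 8 of 27 alternative analyses. C4b, a component of the classical pathway, read 11.71, 12.17, 11.85, 10.27 and 11.67 against 8.77 to 11.93 (median 10.07), which gave 1.36 ± 0.50, and was the 1 complement gene with an unadjusted p under 0.05.

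Stress and metabolic lists had small median differences, though single members differed more. The unfolded protein and ATF4 response had a median of -0.27 over 17 tested, with 0 passing limma's test and 4 lower at an unadjusted p under 0.05. Trib3, a pseudokinase induced by ATF4, read 4.46, 4.37, 4.92, 3.87 and 4.2 against 4.14 to 7.83 (median 5.83), a difference of -1.53 ± 0.52, and Slc7a11, the cystine transporter, differed by -0.68 ± 0.24. Atf4 itself differed by -0.52. The response's median was -0.06 without EGFRvIII arrays 44, 45 and 48, with 1 lower at that p, and that of hypoxia genes was also -0.06. Hypoxia genes had a median of -0.21 over 15, with Angptl4 at -1.70 ± 0.66. Cholesterol synthesis genes were positive in 15 of 15 tested, but with a median of only 0.24, 0 at an unadjusted p under 0.05 and 0.05 as the median without EGFRvIII arrays 44, 45 and 48. Lss, lanosterol synthase, had the smallest p of that list, at 0.70 ± 0.32.

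Kainate and AMPA receptor subunits, which carry fast glutamate signals and are found on progenitors as well as neurons, had a positive difference in 11 of 11 tested, a median of 0.82 and 0 passing limma's test. Grik3, a kainate receptor subunit, read 8.16, 8.09, 8.69, 8.59 and 8.42 against 3.06 to 8.21 in EGFRvIII (median 5.46), a difference of 2.57 ± 0.76 (adjusted p = 0.489). The median was 0.22 without EGFRvIII arrays 44, 45 and 48. Potassium and calcium channels had a median of 0.48 over 15, with 14 positive, 0 passing and 3 higher at an unadjusted p under 0.05. Kcnip2, a subunit of potassium channels, read 6.37, 6.82, 6.15, 7.69 and 6.40 and reached 9.52 in array 57, and it differed by 1.35 ± 0.52. Guidance and synapse adhesion genes had a median of 0.61 over 15, with Unc5c, a netrin receptor, at 1.48 ± 0.61 and Sema3a, a repulsive cue, at -1.39 ± 0.47. Without EGFRvIII arrays 44, 45 and 48 the channel median was 0.15, with 1 higher at that p, and the guidance and adhesion median was 0.16, with 0 higher and 2 lower. Neuron genes, described next, were higher on average in the same arrays, and their part in these 3 lists was not tested.

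Neuron genes, given as a description because they chose the arrays, had a positive difference in 16 of 16 tested, with a median of 1.01. Their average was 8.01, 8.61, 7.67, 9.74 and 8.40 in E10 del.v2, highest in array 63, and 11.27 in array 57. EGFRvIII ran from 5.07 in array 47 to 10.22 in array 42. Snap25, a synaptic vesicle fusion protein, read 11.47, 11.43, 10.27, 12.28 and 11.76, and 13.37 in array 57. Myelin genes were positive in 14 of 16 tested, with a median of 0.81, and averaged 8.00, 9.37, 9.21, 8.55 and 7.97. Array 57 stood at 8.05 for the myelin list, inside the E10 del.v2 range, so it was apart in neuron genes and not in myelin genes. With the mean of both lists as a covariate in limma, 1 gene was called.

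**Figure D5:**
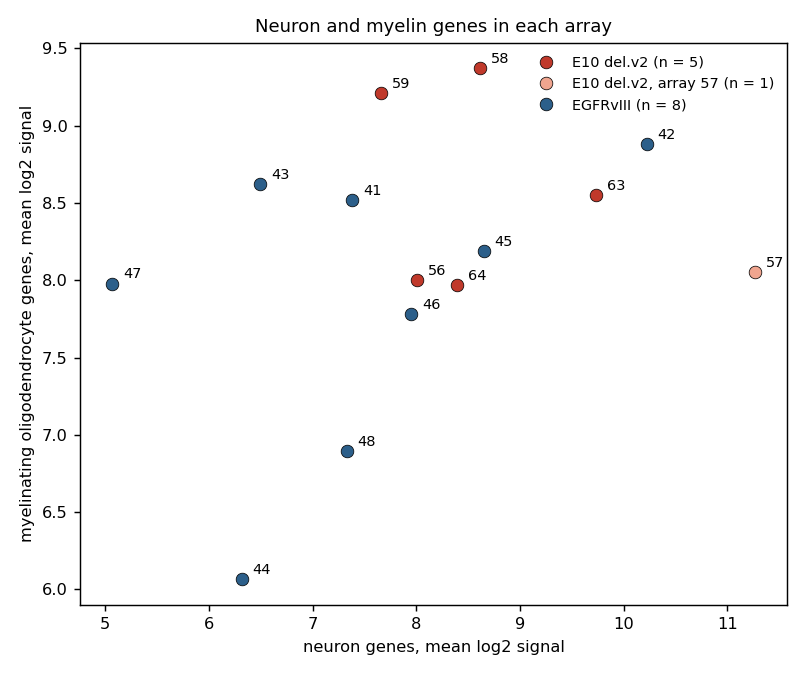
Mean log2 signal of the 16 neuron genes against that of the 16 myelinating oligodendrocyte genes, with 1 point per array labelled by its title number. Array 57 lies at 11.27 on the neuron axis, beyond all other arrays, and within the range of the other arrays on the myelin axis.

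Markers of other cell types showed no called gene. Microglia and macrophage genes had a median of -0.06 over 18 tested, which changed sign in 7 of 27 alternative analyses, and averaged 8.58, 8.99, 8.6, 7.56 and 7.50 against 7.58 to 9.52 in EGFRvIII. P2ry12, a receptor of resident microglia, read 9.05, 8.74, 8.81, 8.25 and 8.13 against 5.62 to 8.88 (median 7.63), a difference of 1.26 ± 0.47 (adjusted p = 0.489). Mrc1, a receptor of other brain macrophages, differed by -2.07, with an EGFRvIII maximum of 10.02 in array 44. Endothelial genes had a median of -0.34 over 13, fibroblast and meningeal genes -0.35 over 9 and astrocyte genes 0.15 over 15. Pericyte, granulocyte, choroid plexus and erythroid lists kept 4, 4, 4 and 1 tested genes. Of 15 listed lymphocyte genes, 2 passed the filter, and Cd4 read 4.52 to 4.79 in E10 del.v2, at or below the table median. Ttr, made by the choroid plexus, read 8.94, 9.75, 9.14, 12.82 and 8.50 against 3.15 to 9.26 (median 7.05), with array 63 far above the rest. Array 63 was therefore the E10 del.v2 array with the highest neuron average and Ttr signal and the lowest MHC class I and interferon averages.

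Array 57 differed from the other E10 del.v2 arrays in tumour genes as well as in neuron genes. It read 4.16 for Pdgfra, 4.05 for Cdkn2a, 9.24 for Vim and 7.19 for Olig2, each below all 5 other E10 del.v2 arrays. Progenitor genes averaged 6.81 and mesenchymal effectors 5.31 in it, both below the other 5. With it kept, the progenitor median was 0.96 and the mesenchymal median -1.63.

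The E10 del.v2 group had 3 further arrays, 23, 24 and 25, in the lower range of title numbers, which the labels do not call a batch and which held no EGFRvIII array. Adding them gave 8 against 8 arrays and 23 called genes, 12 higher and 11 lower, a fit in which group and title range are partly confounded. Of the genes above, Uty, Zfp994, Zfp40, Rbm28 and Hes5 were among the called higher genes. Pdlim4, Cpne8, Greb1, Xist, Akr1c13, Slc38a6 and Ltbp1 were among the lower ones. Greb1 and Akr1c13 were dim in the 5 E10 del.v2 arrays, as given above. Zfp40 differed by 1.43 ± 0.24 there (adjusted p = 0.0254), Zfp994 by 1.39 ± 0.21 (0.0145 adjusted), Pdlim4 by -1.83 ± 0.25 (0.00697 adjusted) and Hes5 by 2.22 ± 0.40 (0.0332 adjusted). Rnf43, an antagonist of Wnt receptors, was called at 1.58 ± 0.21 and Bag3, a co-chaperone, at -1.57 ± 0.30, both named after their values were seen. This fit shares the 5 E10 del.v2 and 8 EGFRvIII arrays of the main comparison, so it is not independent of it. Zfp945 was called at 1.60 ± 0.31 although it differed by 0.01 with the 5 arrays, where another of its probe sets was used.

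Pdgfra V544ins, another receptor mutant of the study with 6 arrays in the same title range, was set beside E10 del.v2 in a fit of 22 arrays that also held EGFRvIII and Pdgfra E7 del. With limma 0 of 11371 genes (0%) passed an adjusted p of 0.05, and 834 (7.33%) had an unadjusted p under 0.05. This comparison shares the E10 del.v2 arrays with the one above, so values are given side by side. Cpne8 read 3.78 to 6.15 in V544ins (median 5.04) and differed by -0.06 ± 0.38. Dusp4 read 4.86 to 5.46 and differed by -0.40 ± 0.56, and Twist1 read 2.81 to 3.60 and differed by -0.01 ± 0.71. Zfp40, at 7.36 to 8.21, and Zfp994, at 6.0 to 6.54, also overlapped with E10 del.v2.

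Uty ran from 3.0 to 6.45 in V544ins, low in arrays 49 and 61 at 3.0 and 3.14, and differed by 1.0 ± 0.50. Eif2s3y read 9.02 in array 61, so Uty was dim there too while another Y-linked gene was not. Lgals1 read 10.14 to 12 in V544ins, above all 5 E10 del.v2 arrays (-1.58 ± 0.62), and Susd5 read 4.22 to 8.91 (2.11 ± 0.90). Trib3, at 5.17 to 7.34, was also above all 5 (-1.54 ± 0.51). Of 17 tested unfolded protein and ATF4 genes, 0 were higher and 5 lower in E10 del.v2 at an unadjusted p under 0.05, with a median of -0.40. Over all genes of this fit, 7.33% had such a p in either direction. Ttr differed by 4.86 ± 1.08, with V544ins at 2.44 to 7.51. Progenitor genes had a median difference of 0.37 from V544ins and mesenchymal effectors -0.43.

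Letting other groups set the spread changed how many genes were called in the main comparison. When the 22 arrays shared 1 estimate of the spread, 7 genes were called, Uty, Zfp994, Zfp40, Maged2 and Pisd-ps3 higher and Akr1c13 and Cpne8 lower. Zfp994 then had an adjusted p of 0.0302 and Maged2 of 0.0417, with the same differences as above. Akr1c13 was dim in all E10 del.v2 arrays of this fit. Pisd-ps3, a pseudogene of phosphatidylserine decarboxylase, read 9.79, 9.36, 9.78, 9.07 and 8.71 against 5.62 to 9.28 (median 6.42), a difference of 2.53 ± 0.51 (adjusted p = 0.343 with 13 arrays). A pseudogene can share probes with its parent gene, so its level is uncertain.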

How the data were processed

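Per the submitters' processing notes, the authors made the deposited log2 values with RMA, whose version and settings are not given in the sources used here. Values of 45141 probe sets ran from 1.46 to 13.82. Of these, 28898 matched 1 gene symbol in GEO's platform annotation, 551 several and 15692 none, giving 17097 genes. A gene's probe set was the one of highest mean signal in the fitted arrays. A gene entered the test if 3 or more of those arrays exceeded 4.79, the median of the table, and 11149 genes did. Groups came from the genotype label. The 5 E10 del.v2 and 8 EGFRvIII arrays were fitted with limma 3.58.1 (lmFit, eBayes, no covariates) in R 4.3.3, with Benjamini-Hochberg adjustment over all genes kept. E10 del.v2 was compared with V544ins in a fit of 22 arrays. The procedure was tested on simulated data.

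Named genes were the called genes and, up to 14 in each direction, those of smallest p whose groups did not overlap, predicted genes and clones passed over, with Pdgfra, Egfr, Cdkn2a, Cdkn2b and sex chromosome genes always, and the 2 of smallest p of each list. Further list members were named after their values were seen. The 46 lists held 692 symbols, of which 500 were tested, and no set test was run. The arrays, lists and rules were chosen with earlier results of these data known. Alternatives were another filter, probe set rule, normalisation, variance prior, array weights, a host brain covariate, a minimum difference, other arrays in the fit, and leaving out each array. Precision is limited by the number of arrays. Trp53 was not analysed here.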

Additional observations from a re-analysis of the deposited data

Results flagged for a closer look

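In 7 of 68 groups of values examined (the named genes in each of the 2 groups), 1 array stood far from the rest of its group, 5 times in E10 del.v2 and 2 times in EGFRvIII. Dixon's criterion, at the level used, marks about 5% of groups by chance, a rate that need not hold for genes chosen mostly because the groups did not overlap. In E10 del.v2, Ptprs read 10.95 in array 64 against 10.65 to 10.70 in the others, and Uhmk1 read 8.99 in the same array against 9.16 to 9.22. Zdhhc21 read 8.70 in array 56 against 8.44 to 8.48, and Twist1 read 2.74 there against 3.10 to 3.24. Cdkn2b read 6.06 in array 63 against 7.74 to 8.23. In EGFRvIII, Rbm3 read 3.87 in array 48 against 6.41 to 7.11 and Lpar6 read 9.13 in array 44 against 7.09 to 8.00. The Ptprs, Zdhhc21, Twist1 and Cdkn2b arrays lay on the side away from EGFRvIII, the Uhmk1 array lay toward it, and the causes were not tested.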

How the results depend on the processing

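Uty was called in all 27 alternatives for E10 del.v2 against EGFRvIII, with differences from 2.35 to 3.28. Of 915 values for 34 named genes, 862 kept their direction and side of the threshold, 16 lost the call (all of Cpne8), 31 gained one and 6 changed sign. The count of 2 called genes became 1 with no filter on dim genes, with the host brain covariate, with a minimum log2 difference of 1 and without EGFRvIII arrays 44, 45 and 48. It was 1 to 3 with 1 array left out, 7 with the upper range groups sharing 1 spread, 115 (33 higher, 82 lower) with all arrays in 1 fit and 23 with E10 del.v2 arrays of both title ranges. For E10 del.v2 against V544ins the count of 0 became 115 (30 higher, 85 lower) with array weights and 1 each with the host brain covariate and with only those 2 groups fitted, and stayed 0 with any array left out. Cpne8 lost its call when any E10 del.v2 array was left out (adjusted p from 0.177 to 0.687). The Pdgfra difference became -0.59 with array weights, -0.43 with array 57, -0.23 and -0.29 without EGFRvIII array 45 or 44 (-0.29 to 0.41 over all arrays left out in turn), and -0.88 without arrays 44, 45 and 48, where that of Egfr became 0.15. Causes were not tested. No paired analysis was possible because replicate numbers follow the order of deposit and pair no samples.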
